A study of Homo sapiens with 4 samples.

Results

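The genes that tie HEK293 cells to their substrate were examined: the integrin subunits, the laminin chains, the collagen chains and fibronectin. A gene belonged to the set when its symbol was ITGA or ITGB with a number, ITGAV, LAMA, LAMB or LAMC with a number, COL with a number and A, or FN1, and when at least 1 probe set of the array carried that symbol alone. This gave 74 of the 19775 genes on the array, namely 13 integrin alpha subunits, 7 integrin beta subunits, 10 laminin chains, 43 collagen chains and FN1. HEK293 is a human embryonic kidney line that grows attached to plastic. The study held 4 Affymetrix arrays, 2 from untreated cells (titled Vc, a term the labels leave unexplained, with their treatment given as none) and 2 from cells given lysophosphatidic acid (LPA), with replicate numbers 1 and 2 in each group. The protocol, worded alike for all arrays, describes growth in serum, a night in serum-free medium and 1 µM LPA for 2 h. Nothing in the labels says that the replicates were separate cultures, so each p-value rests on array-to-array spread alone, which may be technical.

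Integrins are cell surface receptors made of an alpha and a beta subunit, and the pair sets which matrix protein is bound. Laminins, trimers of an alpha, a beta and a gamma chain, form together with type IV collagen the sheet-like basement membrane under epithelia, which in the developing kidney surrounds the tubules and the glomerulus. Fibril-forming collagens and fibronectin build the fibrous matrix of connective tissue. LPA is a serum lipid that acts on G protein-coupled receptors and is known to act on the actin cytoskeleton and adhesion.

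Of the 74 genes, 35 (47.3%) gave a signal on all 4 arrays above that of genes taken as not expressed here, against 52.6% of all genes. Those reference genes were 82 olfactory receptors, receptors of the nasal epithelium, and the bar on each array was the 95th percentile of their brightest probe sets, a signal between 78.7 and 103. A further 14 members passed the bar on 1 to 3 arrays and 25 on none. The bar is not a detection call, and signals of different probe sets depend on their probes, so no gene is ranked against another by signal. The set above the bar held ITGB1, ITGB5 and 9 alpha subunits, 3 laminin alpha chains with 2 beta and 2 gamma chains, and 2 of the 3 type IV collagen gene pairs. Which of these join into receptors or trimers was not measured. ITGA2B is among the 9 alpha subunits, although it pairs with neither ITGB1 nor ITGB5.

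LPA was followed by no change in these genes that passed the test. The 45 members with a mean log2 signal above the 40th percentile of all genes (a signal of 70.5) were tested with limma among 11865 genes. With a threshold of 0.05 on the adjusted p, 0 of the 45 passed, against 0% of all genes tested, and their adjusted p was 0.9999 or more. At an unadjusted limma p under 0.05 the count was 0 of 45 members, against 207 genes (1.74%) overall. With the replicate number as a block in limma the unadjusted count was 1 member, COL4A5, against 8.55% of all genes, and 0 members passed after adjustment, against 0.27%.

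Log2 differences of LPA minus untreated were above 0 for 22 members and below 0 for 23, where 51.9% of all genes were above 0. Their median was -0.012, against 0.0092 over all genes. Both LPA arrays exceeded both untreated arrays for 5 members (14.4% of all genes did so) and lay under them for 5 (12.5% of all genes). A difference past 1.5-fold was found for 1 member, COL20A1, against 5.46% of all genes. These shares lay close to those of the array as a whole. In bulk RNA such as this, fewer cells that carry a transcript and less of it per cell cannot be told apart. The cell label was checked against markers. Of 10 measured markers of HEK293 cells and of kidney or neural lineage, 8 were above the olfactory bar on all 4 arrays. Among them was the keratin KRT18 (2519 and 2836 untreated, 2612 and 2611 with LPA). From the same list PAX2 passed on 3 arrays and LHX1 on 0. Of the 7 fibroblast and 6 endothelial markers 0 were above the bar on all 4 arrays, and of 8 leukocyte markers 1, ITGAE. Of 4 platelet markers 0 were, and of 5 epithelial markers 2, CDH1 and EPCAM. The epithelial keratins KRT5, KRT14 and KRT19 passed on 0 arrays. PECAM1, an endothelial marker, passed on 2 arrays, untreated replicate 2 and LPA replicate 1 (69.0 and 130 untreated, 111 and 48.3 with LPA). The platelet marker PF4 passed on 3 arrays, and THY1, ITGAL and GP1BA on 1 each. The fibroblast marker S100A4 passed on 3 arrays, reading 162 and 64.3 untreated and 231 and 182 with LPA. The leukocyte integrin ITGAM passed on 2 arrays, untreated replicate 1 and LPA replicate 2 (107 and 89.5 untreated, 39.2 and 82.5 with LPA), and PTPRC, a pan-leukocyte gene, on none.

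**Figure D1:**
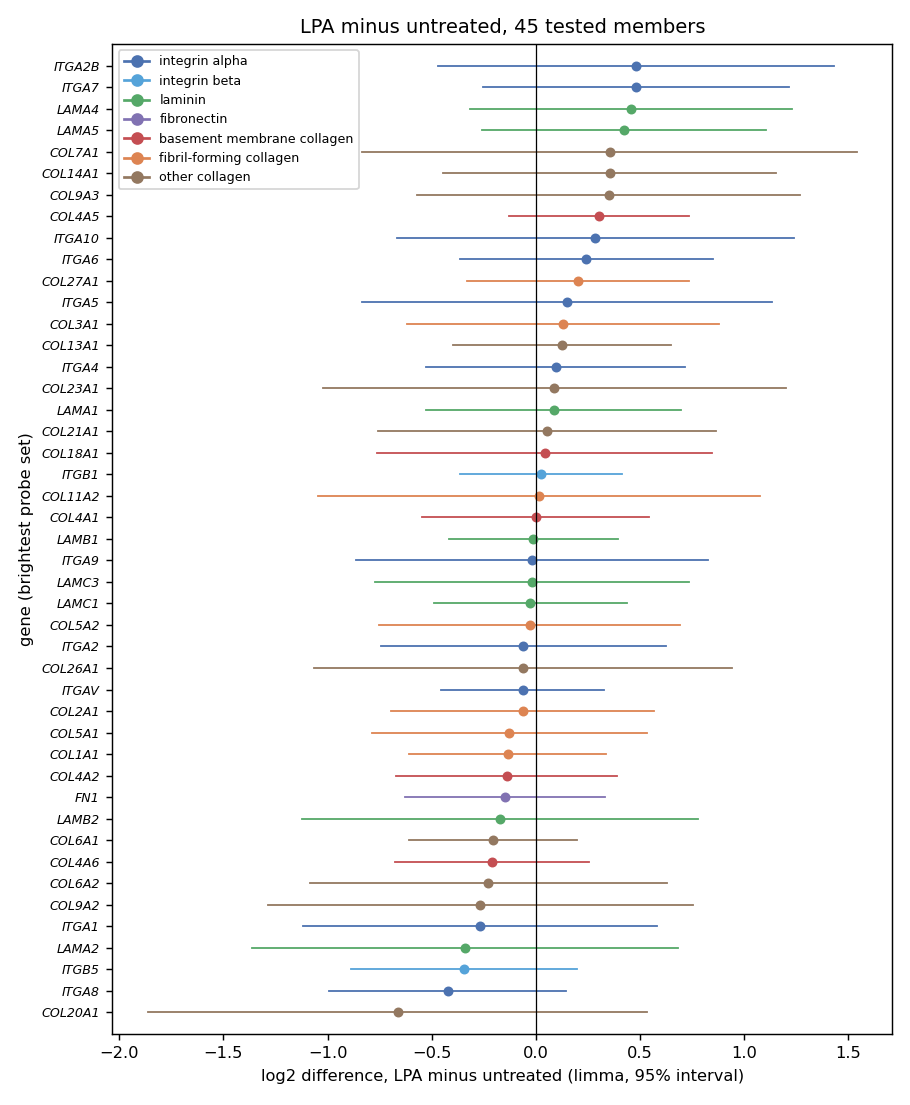
Log2 difference of LPA minus untreated (x axis) for the 45 tested genes (y axis, sorted by difference), with points for the limma estimate, bars for its 95% interval and colours for the gene class; 2 arrays per group. Every interval crosses 0, and the estimates run from -0.66 for COL20A1 to 0.48 for ITGA2B.

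Among the integrin alpha subunits that bind collagen, ITGA2 read 345 and 276 in untreated cells and 336 and 261 with LPA. ITGA1 read 139.5 and 146 untreated and 128 and 109.6 with LPA, so that both LPA arrays lay lower. The other collagen-binding subunits were dim: ITGA10 read 88.0 and 79.2 untreated and 108 and 96.3 with LPA, both LPA arrays higher, and ITGA11 read between 13.5 and 127. The log2 difference was -0.06 ± 0.30 (SE, 2 arrays per group) for ITGA2, -0.27 ± 0.37 for ITGA1 and 0.29 ± 0.42 for ITGA10. A dimmer ITGA2 probe set past the filter read 89.2 and 167 untreated and 71.0 and 63.4 with LPA. It differed by -0.85, and the mean of all ITGA2 probe sets by -0.46.

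The subunits that pair with ITGB1 to bind laminin gave a mixed picture. ITGA6 read 476 and 417 untreated and 445 and 626 with LPA, with overlap between the groups and a log2 difference of 0.24 ± 0.27. ITGA7, the muscle-rich laminin receptor subunit, read 171 and 157 untreated and 232 and 227 with LPA. Its groups did not overlap, and the log2 difference of 0.48 ± 0.32 gave a limma p of 0.172. It was alike in both replicate numbers (0.44 and 0.52), and its other probe set lay under the filter. ITGA3, the main laminin receptor subunit of epithelia, read 84.3 and 85.1 untreated and 75.3 and 10.7 with LPA, above the bar on none of the 4 arrays, and was not tested.

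Subunits that recognise the RGD sequence, the integrin-binding motif of fibronectin and vitronectin, included ITGAV, which read 2057 and 1926 untreated and 2061 and 1761 with LPA. Its log2 difference was -0.06 ± 0.17, with an interval from -0.45 to 0.33. ITGA5, the classical fibronectin receptor subunit, read 134 and 90.4 untreated and 99.5 and 150.0 with LPA, close to the bar. Its difference was -0.42 in number 1 and 0.72 in number 2, 0.15 ± 0.43 in all.

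ITGA8, the partner of ITGB1 that kidney mesenchyme needs for the outgrowth of the ureteric bud, read 499.5 and 460.2 in untreated cells and 362 and 353 with LPA. Both LPA arrays were lower, and the log2 difference of -0.42 ± 0.25 had the smallest limma p of the 45 members, 0.126 (adjusted p = 0.9999). The numbers gave -0.46 and -0.38. Its other probe sets were divided: the next brightest read 268 and 209.6 untreated and 293 on each LPA array (0.31), and the third gave -0.48. ITGA2B, the platelet fibrinogen receptor subunit, read 108 and 178 untreated and 153 and 248 with LPA. The groups overlapped, since untreated replicate 2 read more than LPA replicate 1, and the log2 difference of 0.48 ± 0.42 (0.49 and 0.47 in the numbers) ran from 0.12 without untreated replicate 1 to 0.84 without untreated replicate 2.

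ITGA4, which binds fibronectin and the vascular ligand VCAM1, read 435 and 437 untreated and 561 and 388 with LPA. ITGA9, its closest relative, read from 124 to 136 on all 4 arrays. Neither showed separate groups.

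Of the beta subunits only ITGB1 and ITGB5 were above the bar on all 4 arrays. ITGB1, the shared partner of most matrix-binding alpha subunits, read 6124 and 7645 untreated and 6456 and 7518 with LPA. The replicate numbers lay further apart (0.27 on the log2 scale) than the groups, whose difference was 0.03 ± 0.17 with an interval from -0.36 to 0.41. Its next probe sets gave 0.16 and -0.12.

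ITGB5, which joins ITGAV to form a vitronectin receptor, read 733 and 683 untreated and 643 and 484 with LPA. Both LPA arrays were lower, with a log2 difference of -0.34 ± 0.24 and a limma p of 0.185. Of its dimmer probe sets, those past the filter overlapped between groups and differed by 0.09 and -0.11.

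The remaining beta subunits were not tested. ITGB3, the other well-known partner of ITGAV, read 143 on 1 untreated array and 32.8 on the other, with 65.8 and 55.9 after LPA. ITGB4, the hemidesmosome subunit that pairs with ITGA6, read 163 on 1 untreated array and between 11.2 and 36.7 on the others. ITGB8 read between 1.98 and 92.7, ITGB7 up to 71.7, and the leukocyte subunit ITGB2 between 3.30 and 23.0. Among leukocyte integrins outside the set, ITGAE, named here after its values were seen, stood out with 8389 and 9399.6 untreated and 8363 and 8210.4 with LPA, while its partner ITGB7 was under the bar.

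**Figure D2:**
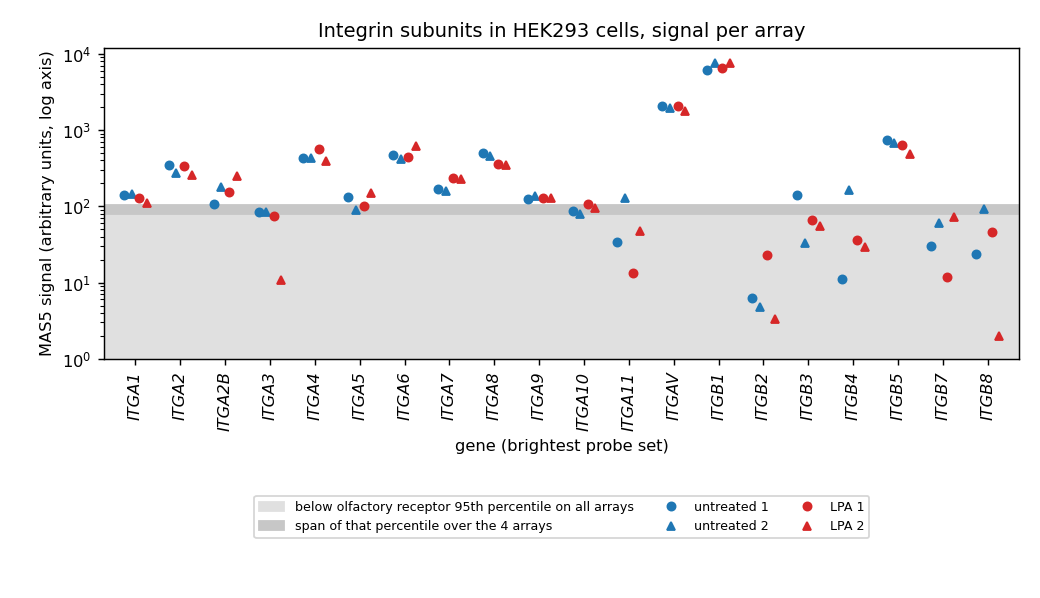
MAS5 signal (y axis, log scale) of the brightest probe set of each integrin subunit (x axis), with 1 point per array, blue for untreated and red for LPA, circles for replicate 1 and triangles for replicate 2. The grey areas lie under the olfactory receptor bar (78.7 to 103 depending on the array); ITGAV, ITGB1 and ITGB5 sit clear of it on every array, and ITGB2 to ITGB4, ITGB7 and ITGB8 mostly inside it.

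Laminin chains of the basement membrane were mostly above the bar. Of 10 chains 7 were above the bar on all 4 arrays: the alpha chains LAMA1, LAMA4 and LAMA5, the beta chains LAMB1 and LAMB2, and the gamma chains LAMC1 and LAMC3. LAMB1, found in most laminin trimers, read 1935 and 2375 untreated and 1998 and 2261 with LPA (log2 difference -0.01 ± 0.18). LAMC1, the gamma chain of nearly all basement membranes, read 2644 and 1826 untreated and 2147 and 2167 with LPA (-0.03 ± 0.20). For both, the LPA values lay between the untreated ones.

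LAMA5, the alpha chain of the mature kidney and most adult epithelia, read 213 and 286 untreated and 342 and 323 with LPA. Both LPA arrays were higher, with a log2 difference of 0.43 ± 0.30 and a limma p of 0.190. The difference was 0.68 in number 1 and 0.17 in number 2. A further probe set, which lists LAMA5 together with its antisense gene and so lay outside the set, read 145 and 175 untreated and 135 and 170.1 with LPA, a difference of -0.07 ± 0.42.

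LAMA4, a chain of vessel and muscle basement membranes, read 432 and 231 untreated and 462 and 409 with LPA. The log2 difference of 0.46 ± 0.34 rested on the low value of untreated replicate 2, without which it was 0.0084, and its second probe set gave -0.28. LAMA1, the alpha chain of early embryonic basement membranes, read 529 and 383 against 442 and 516. LAMB2, a chain of the glomerular basement membrane, read 231 and 297 untreated and 155 and 348 with LPA (-0.17 ± 0.42), and differed more between the numbers (0.76) than between the groups. LAMC3 read between 187 and 267. LAMA2, the muscle laminin chain, read 85.9 and 81.4 untreated and 65.0 and 66.6 with LPA (-0.34 ± 0.45), both LPA arrays lower and all 4 under the bar. LAMB3, a chain of the skin's anchoring laminin, and LAMB4 were not tested and did not exceed 79.9 on any array.

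Fibronectin (FN1), the soluble and fibrillar ligand of ITGA5 with ITGB1, read 831 and 983 in untreated cells and 753 and 884 with LPA. The groups overlapped, with a log2 difference of -0.15 ± 0.21 and an interval from -0.63 to 0.33. The 4 dimmer FN1 probe sets past the filter differed by 0.056, -0.005, 0.068 and 0.22.

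**Figure D3:**
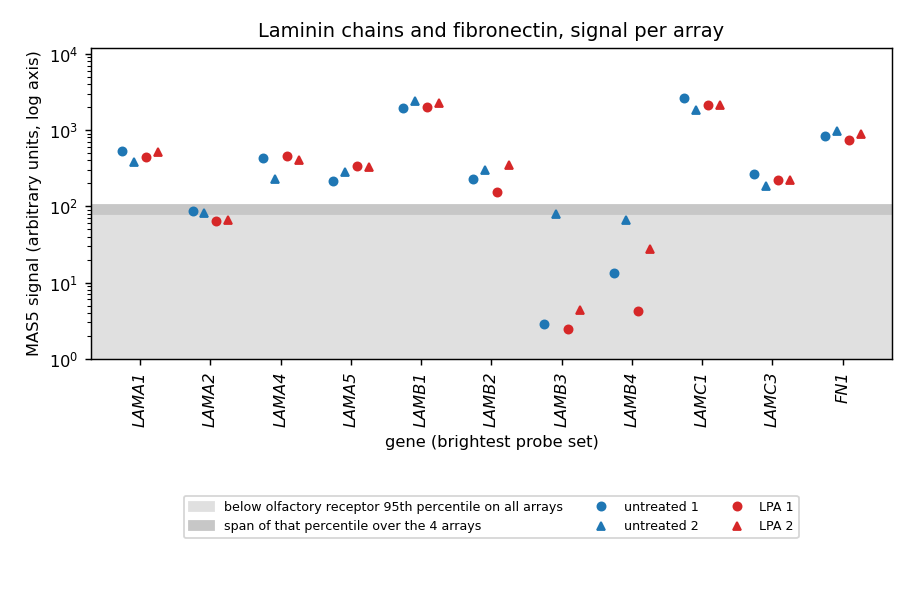
MAS5 signal (y axis, log scale) of the laminin chains and FN1 (x axis), with points, colours, shapes and grey areas for arrays, groups, replicates and the olfactory receptor bar. LAMB1 and LAMC1 lie between 1826 and 2644 on all arrays, and LAMA2, LAMB3 and LAMB4 lie under the bar.

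Type IV collagen, the network-forming collagen of basement membranes, is encoded by 6 genes arranged as 3 head-to-head pairs, each pair read outward from a shared stretch of DNA. Of these pairs 2 had both genes above the bar on all 4 arrays and 1 had neither. COL4A1 read 584 and 486 untreated and 561 and 507 with LPA, and its neighbour COL4A2 1105 and 1075 untreated and 808 and 1212 with LPA. COL4A5 read 1248 and 1034 untreated and 1350.0 and 1458 with LPA, and its neighbour COL4A6 911 and 1051 against 790.1 and 908. COL4A3 and COL4A4, whose chains join that of COL4A5 in the mature glomerular membrane, read between 20.9 and 66.3 and between 38.8 and 75.6.

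The promoters of 1 gene from each pair show how closely the neighbours lie. Each window spans 250 bases before to 50 bases after the annotated start, from RefSeq on GRCh38.p14, 5′ to 3′ on the plus strand, and capitals mark the bases that also lie in the window of the neighbour on the minus strand. COL4A2 is at chr13:110307034-110307333 and shares 226 bases with COL4A1, COL4A5 at chrX:108439588-108439887 shares 121 with COL4A6, and COL4A3 at chr2:227164374-227164673 shares 82 with COL4A4.
COL4A2: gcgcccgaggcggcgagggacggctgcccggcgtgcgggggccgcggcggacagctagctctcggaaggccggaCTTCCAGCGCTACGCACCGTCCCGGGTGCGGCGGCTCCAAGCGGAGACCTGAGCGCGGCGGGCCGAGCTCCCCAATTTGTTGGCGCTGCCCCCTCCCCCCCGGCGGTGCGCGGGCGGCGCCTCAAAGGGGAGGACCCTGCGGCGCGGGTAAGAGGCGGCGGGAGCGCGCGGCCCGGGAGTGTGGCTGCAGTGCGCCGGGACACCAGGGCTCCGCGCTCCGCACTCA
COL4A5: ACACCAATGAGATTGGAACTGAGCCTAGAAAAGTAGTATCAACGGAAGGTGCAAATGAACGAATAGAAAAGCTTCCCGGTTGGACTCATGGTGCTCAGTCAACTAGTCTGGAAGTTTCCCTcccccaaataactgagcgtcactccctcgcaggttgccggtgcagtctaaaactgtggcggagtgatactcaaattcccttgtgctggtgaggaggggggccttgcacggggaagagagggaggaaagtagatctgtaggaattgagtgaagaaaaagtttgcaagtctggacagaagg
COL4A3: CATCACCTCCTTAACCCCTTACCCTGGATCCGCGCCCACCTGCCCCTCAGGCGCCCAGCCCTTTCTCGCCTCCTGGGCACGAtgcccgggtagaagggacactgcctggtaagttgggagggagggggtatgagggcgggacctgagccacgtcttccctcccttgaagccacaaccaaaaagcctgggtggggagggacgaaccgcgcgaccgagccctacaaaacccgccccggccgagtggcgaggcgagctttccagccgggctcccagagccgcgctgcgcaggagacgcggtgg
The share of G and C was 77.7% for COL4A2, 49.3% for COL4A5 and 67.7% for COL4A3, against a median of 58.7% over 35116 promoter windows. With 3 pairs, no relation between sequence and signal can be read from this.

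The neighbours did not show like differences after LPA. COL4A5 had both LPA arrays higher, with a log2 difference of 0.30 ± 0.19, and COL4A6 both lower, with -0.21 ± 0.20. The limma p was 0.144 for COL4A5 and 0.335 for COL4A6. Whether they differ from each other was not tested. COL4A1 differed by 0.00 ± 0.24, with an interval from -0.54 to 0.54, and COL4A2 by -0.14 ± 0.23, from -0.45 in number 1 to 0.17 in number 2.

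COL18A1, the basement membrane collagen from which endostatin is cut, read 409 and 508 on the untreated and LPA arrays of number 1 and 835 and 713 on those of number 2. The numbers thus differed by 0.76 on the log2 scale and the groups by 0.04 ± 0.35. Its second probe set showed the same order, with 348 and 508 in number 1 and 633 and 612 in number 2. COL15A1, its relative, did not exceed 35.8 on any array.

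Among the fibril-forming collagens, 6 of 11 were above the bar on all arrays. COL1A1, the main chain of type I collagen, read 991 and 1103 untreated and 847 and 1069 with LPA (log2 difference -0.14 ± 0.21). Its dimmer probe sets past the filter gave 0.40, with both LPA arrays higher, and -0.05. COL1A2, the chain that completes the usual type I trimer, read 39.5 and 54.3 untreated and 56.7 and 88.5 with LPA, above the bar on 1 array, and was not tested. COL3A1, the collagen of reticular fibres, read 206 and 188 against 246 and 189 (0.13 ± 0.33), and its other probe sets gave -1.01 and 0.45.

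COL5A1, a chain of the type V collagen that starts fibrils, read 276 and 298 untreated and 279 and 247 with LPA (-0.13 ± 0.29). Its partner COL5A2 read from 209 to 257 on the 4 arrays. COL27A1, a cartilage fibril collagen, read 623 and 608 untreated and 617 and 816 with LPA (0.20 ± 0.23), so LPA replicate 2 alone was high. COL2A1, the main collagen of cartilage, read between 323 and 435. COL11A2 read from 85.1 to 154, and COL11A1, COL24A1 and COL5A3 did not exceed 35.4.

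Of the 24 other collagen chains, 5 were above the bar on all 4 arrays. COL6A1, a chain of the beaded filament collagen that lies beside basement membranes, read 2155 and 2662 untreated and 1966 and 2199 with LPA. Its log2 difference was -0.20 ± 0.18, with the groups overlapping. COL6A2 read between 117 and 166, and COL6A3, the third chain of the usual trimer, between 4.86 and 43.9, under the bar on every array.

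COL13A1, a membrane-spanning collagen found at cell adhesions, read between 661 and 871. COL14A1, which coats fibrils, read 183 and 186 untreated and 188 and 297 with LPA. Both LPA arrays were higher, but the log2 difference of 0.36 ± 0.35 came from number 2 (0.67 against 0.04). COL21A1 read between 142 and 191. COL9A3, a cartilage collagen chain, read 89.9 and 141 untreated and 149 and 139.7 with LPA (0.35 ± 0.40), and only untreated replicate 1 stood apart.

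COL20A1 had the largest estimate of the set. It read 64.7 and 145 untreated and 56.5 and 65.5 with LPA, a log2 difference of -0.66 ± 0.53 with a limma p of 0.240. Untreated replicate 2 was the only array above the bar, and without it the difference was -0.088. COL7A1, the anchoring fibril collagen of skin, had 1 low untreated array (57.5 and 153, with 117 and 123 after LPA). The 29 untested members of all classes read between 1.27 and 163.

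**Figure D4:**
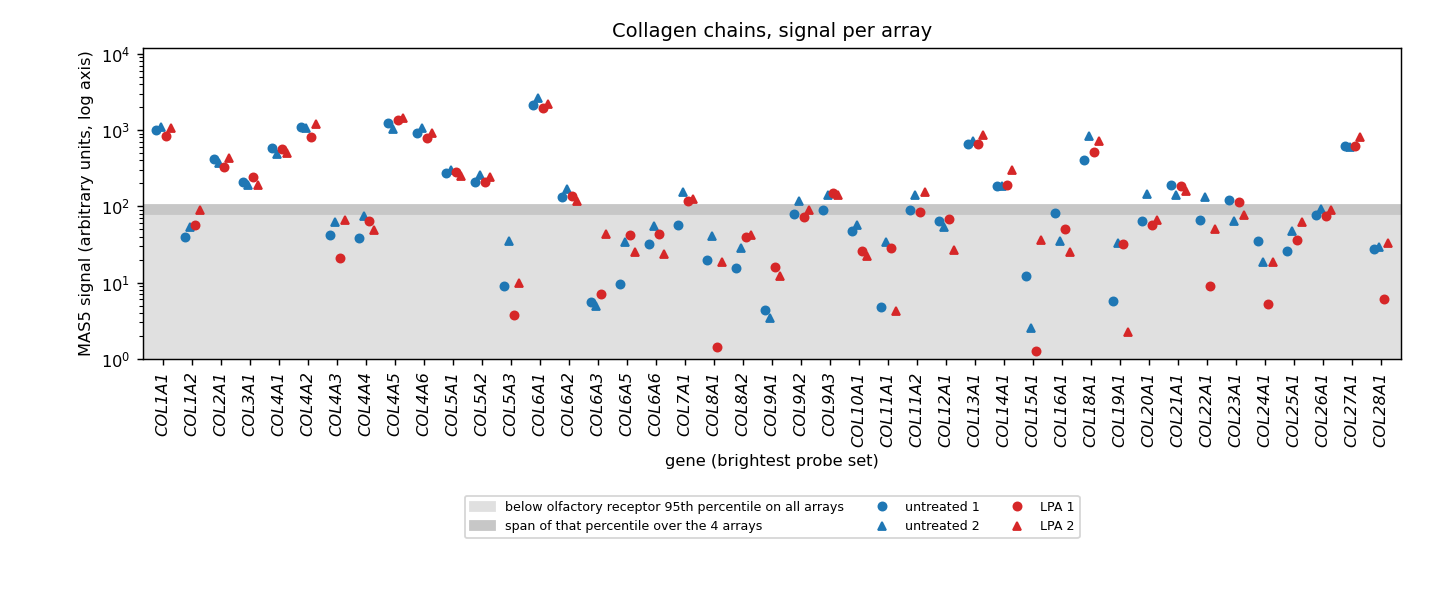
MAS5 signal (y axis, log scale) of the 43 collagen chains (x axis), with points, colours, shapes and grey areas for arrays, groups, replicates and the olfactory receptor bar. The neighbours COL4A1 and COL4A2, and COL4A5 and COL4A6, lie above the bar on all arrays, COL4A3 and COL4A4 under it.

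The gap between numbers 2 and 1, averaged over the groups, was larger than the LPA difference for 29 of 45 members (64.4%), close to the 62.1% of all genes. By class the count was 6 of 13 integrins, 6 of 8 laminins and 16 of 23 collagens, and whether the classes differ was not tested. For the integrins the median size was 0.16 for the gap and 0.24 for the LPA difference. Over all 45 members the median size of the gap was 0.25 on the log2 scale, and that of the LPA difference 0.15, against a median SE of 0.32 for these members and 0.24 for all genes tested. The LPA difference had the same sign in both numbers for 20 members (44.4%), where 53.4% of all genes did. LPA replicate 2 stood apart from the other arrays by a lower highest signal, 62508 against 92779 to 101445 among named probe sets. Its part in these results was not tested beyond leaving it out, after which 0 members passed and their median was -0.039.

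**Figure D5:**
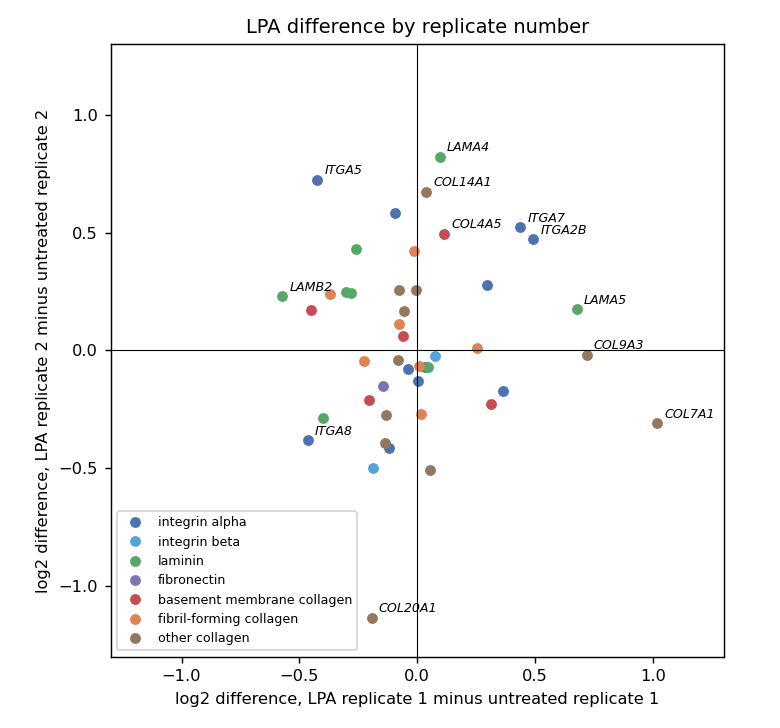
Log2 difference of LPA minus untreated in replicate number 1 (x axis) and number 2 (y axis) for the 45 tested genes, coloured by class, with 12 genes labelled. ITGA7 and ITGA2B lie in the upper right and ITGA8 in the lower left with similar values on both axes, while ITGA5, LAMB2 and COL7A1 have opposite signs.

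More than 1 probe set was present for 58 of the 74 genes. Besides the brightest, 35 probe sets of 22 tested members lay above the filter, and 13 of these, from 11 genes, had a log2 difference of the opposite sign. COL1A1, COL3A1, FN1, ITGA8, ITGB1, ITGB5 and LAMA4 were among the 11. COL13A1, whose brightest probe set gave 0.13, had dimmer ones at 1.43 and 1.08.

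Of 28 measured genes for integrin-associated proteins of cell adhesions (actin linkers, kinases and adaptors), 24 were above the bar on all arrays. In this list, as in the others below, 0 genes passed. Of the 26 tested, 17 were above 0 and the median log2 difference was 0.10. ILK, the kinase-like scaffold at the integrin beta tail, read 436 and 437 untreated and 354 and 238 with LPA, a log2 difference of -0.59 ± 0.29 with both LPA arrays lower. Its complex partner RSU1 read 3465 and 4080.5 against 4089 and 4779.9 (0.23 ± 0.17), and the adaptor BCAR1 differed by 0.38 ± 0.33.

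Other basement membrane genes had a median of 0.12 over 10 tested, 6 of them above 0. FREM2 and FRAS1, which form a complex under embryonic epithelia and in the kidney, differed by 0.33 ± 0.25 and -0.21 ± 0.17, both with no overlap between groups, and agrin (AGRN) by -0.35 ± 0.31. Of 23 other matrix glycoproteins and integrin ligands 8 were tested, with a median of -0.15 and 3 above 0. EFEMP1, a fibulin of the elastic fibre system, read 178 and 239.7 untreated and 100.1 and 98.4 with LPA. Its log2 difference was -1.05 ± 0.37, with a limma p of 0.0206 (adjusted p = 0.9999). No other gene of these lists had an unadjusted limma p under 0.05 in the fit without a block. The lists held 26, 10, 8, 23 and 10 tested genes, and 1.74% of all genes had such a p. Averaged over all its probe sets the EFEMP1 difference was -0.16. With the replicate block, limma gave an adjusted p of 0.402 for EFEMP1, 0.407 for COLGALT1, 0.465 for SDC3 and 0.505 for ILK. The fibulin FBLN1 differed by -0.29 ± 0.27 and the matricellular CCN1 by 0.45 ± 0.31. Tenascin C (TNC) and thrombospondin 1 (THBS1) did not exceed 57.5.

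Enzymes and chaperones of collagen assembly were above the bar on all arrays for 21 of 26 genes, and the median difference over the 23 tested was -0.02, with 11 above 0. The collagen galactosyltransferase COLGALT1 read 625 and 787 untreated and 974 and 914 with LPA (0.43 ± 0.22). Of the lysyl oxidase relatives, which crosslink collagen, LOXL3 differed by 0.46 ± 0.25 and LOXL2 by -0.42 ± 0.28, each with no overlap. The list of matrix receptors other than integrins also held partner proteins, CD151, CD9, CD81 and CD47 among them. Its median was 0.07 over 10 tested, 7 of them above 0. The syndecans SDC2 and SDC3, heparan sulfate carriers, showed different patterns: SDC2 differed by -0.24 ± 0.17 with no overlap, and SDC3 had 1 low LPA array (295 and 289.9 untreated, 58.4 and 362 with LPA). The laminin receptor BCAM differed by -0.47 ± 0.39, and by -0.18 without untreated replicate 1 and -0.76 without untreated replicate 2.

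Promoter windows were at hand for 54 of the 74 genes, in 73 windows of 300 bases. The CArG box, the site of the serum response factor, was searched on both strands and found in 0 of the 73, against 1.29% of all windows. The letters GGAATG, part of the site of TEAD factors, stood on either strand in 7 of the 73 (9.59%), against 14.0% of all windows. The genes with GGAATG were COL10A1, COL11A2, COL12A1, ITGA10, ITGA5, ITGB1 and LAMA2. A match or its lack describes these letters in these windows only.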

How the data were processed

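RNA of 4 HEK293 samples was hybridised to Affymetrix arrays after labelling by a whole-transcript manual, per the labels. The deposited values are intensity values, 1 per probe set and array on a linear scale, made by the authors with MAS5 per the submitters' processing notes (version and settings not given in the sources used here). No further normalization was applied. Of 54675 probe sets, the platform annotation gave 1 symbol to 41097, several to 1801 and none to 11777. Of the probe sets of a gene, the one with the highest mean log2(intensity + 1) stood for it (19775 genes). Genes under the 40th percentile (a signal of 70.5) were left out of the test, which kept 11865.

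The groups were compared with limma 3.58.1 in R 4.3.3 (lmFit, then eBayes with trend = TRUE). Tests were two-sided, and p-values were adjusted by Benjamini-Hochberg over the 11865 genes, at a threshold of 0.05. Differences are on the log2(intensity + 1) scale, which shrinks those of dim tested genes only slightly. A larger pseudocount shrinks them more: with 64 in place of 1, COL20A1 went from -0.66 to -0.39. ± is limma's SE over 2 arrays per group, whose number limits the precision. No test was run on the set as a list. The script was tested on simulated data.

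Members and lists were chosen with earlier results of these data known. Values per array were given for ITGB1, ITGAV, ITGA5, ITGA6, ITGA3, ITGA2, LAMA5, LAMB1, LAMC1, COL4A1, COL4A2, COL1A1, COL1A2, COL3A1 and FN1, for up to 4 tested members of smallest unadjusted p in each class, and for other members by range or where a sentence needed them; in each other list up to 3 tested genes were named by the same rule. Alternatives covered normalization, pseudocount, filter, choice of probe set, intensity trend, replicate block and leaving out each array. Sequences were read from RefSeq promoter windows of GRCh38.p14. The only coordinates given are those of these windows, since no build is named for the array files.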

Additional observations from a re-analysis of the deposited data

How the results depend on the processing

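No member passed the threshold under any of the 14 alternatives to the fit, where the smallest adjusted p of a member was 0.525. Over all genes, limma with the replicate block called 32 (0.27%), the block with quantile normalization 4, and leaving out 1 array 0 to 3 (2 and 3 without untreated replicates 1 and 2, 1 and 0 without LPA replicates 1 and 2). The labels do not say what a replicate number marks. Deviations of same-numbered arrays from their group means correlated at r = 0.33 across 11865 genes, which are not independent replicates. With 2 pairs this does not establish a pairing. The count above the olfactory receptor bar was 32 at the 99th percentile, 24 with the mean of all probe sets and 35 to 37 with 1 array left out.

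Members without overlap numbered 9 higher and 10 lower of 74 with no filter, and 1 and 3 of 20 with a filter at the 60th percentile. With any 1 of the 4 arrays left out they numbered 10 to 16 higher and 10 to 19 lower of 45. There 2 arrays face 1, so that groups separate more easily. The shares of all genes under these settings were not counted, so these counts cannot be read as a trait of the members. The members' median was -0.0454 under quantile normalization with or without the block, 0.0211 under median centring, -0.060 with no filter, -0.11 with the mean of all probe sets, and -0.0392 to 0.077 with 1 array left out. Medians with 1 array left out ran from -0.092 to 0.17 for integrin-associated proteins and 0.0145 to 0.10 for other basement membrane genes. They ran from -0.18 to -0.088 for other glycoproteins, -0.12 to -0.0071 for collagen processing and -0.15 to 0.13 for other receptors and partners. Other basement membrane genes gave -0.0284 with no filter and 0.040 with the mean of all probe sets. Other glycoproteins gave -0.26 with no filter, -0.0014 with the 60th percentile filter and -0.0371 with the mean of all probe sets. Other receptors and partners gave 0.0995 under median centring.

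The mean of all probe sets turned the sign for 13 of 44 named genes: ITGB1 (-0.41), COL3A1 (-0.49), FN1 (0.27), ITGA7 (-0.38), ITGA2B (-0.85), ITGB5 (0.0235), COL4A5 (-0.0871), COL27A1 (-0.44), COL14A1 (-0.16), RSU1 (-0.0847), BCAR1 (-0.26), FRAS1 (0.0457) and FBLN1 (0.58). This mean includes probe sets under the filter. Median centring turned LAMB1 (0.0211) and LAMC1 (0.0066). COL4A1 gave -0.0516 under quantile normalization with or without the block, -0.0001 with a pseudocount of 16 and -0.0004 with 64.

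Leaving out 1 array turned the sign of genes with small or uneven differences: ITGB1 (-0.13 to 0.19), ITGAV (-0.18 to 0.0502), ITGA5 (-0.14 to 0.44), ITGA6 (-0.0017 to 0.49), ITGA2 (-0.24 to 0.12), LAMB1 (-0.16 to 0.14), LAMC1 (-0.29 to 0.24), LAMB2 (-0.75 to 0.41), COL4A1 (-0.13 to 0.13), COL4A2 (-0.43 to 0.15), COL1A1 (-0.30 to 0.0328), COL3A1 (-0.0553 to 0.32), COL18A1 (-0.47 to 0.56) and SDC3 (-2.31 to 0.31). It moved others by over 1.5 times with no turn, among them LAMA5 (0.21 to 0.64), LAMA4 (0.0084 to 0.91), ITGB5 (-0.55 to -0.14), COL4A6 (-0.31 to -0.11), COL14A1 (0.028 to 0.68), COL9A3 (0.027 to 0.67), COL27A1 (0.0027 to 0.41), ILK (-0.87 to -0.30) and AGRN (-0.53 to -0.18). The cause of these shifts was not tested. Dim members carry the widest intervals, and many lie near background.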
